A study of Mus musculus with 4 samples.

Results

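Accessible chromatin was examined at 10 genes that build the heparan sulfate chain and edit its sulfate pattern: Extl3, Ext1, Ext2, Ndst1, Ndst2, Hs2st1, Hs6st1, Hs6st2, Sulf1 and Sulf2. Their accessible regions were taken as every ATAC-seq peak that overlapped the gene body (RefSeq, mm10) or its 50 kb flanks, with peaks of the 4 libraries merged where they shared at least 1 bp. This gave 188 of the 90239 merged regions of the series, and no region was counted for more than 1 of the 10 genes. ATAC-seq marks open chromatin through the DNA cuts of the Tn5 transposase. The cells were iMGT-Myh6-eGFP-MEF, mouse embryonic fibroblasts that express the heart factors Mef2c, Gata4 and Tbx5 (MGT) once doxycycline (Dox) is added, with a Myh6-eGFP reporter in the name of the line. The first group received siChst7, an siRNA against the chondroitin sulfotransferase gene Chst7 (2 libraries), and the other siControl (2 libraries). Both were plated at 500000 cells per plate, transfected, given Dox at 1 μg/mL on the next day, and collected at day 1 after induction, with about 250000 cells per condition and paired reads of 75 bp. Both groups therefore carry the MGT factors, and no uninduced cells are among the 4 libraries. The labels name neither the promoter behind the inducible factors nor whether the line is a single clone.

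Heparan sulfate is a sugar chain that hangs from core proteins such as syndecans and glypicans at the cell surface and in the matrix. Extl3 places the starting sugar of the chain, the Ext1 and Ext2 complex polymerises the chain, and the Ndst enzymes swap acetyl for sulfate groups and so open it to the O-sulfotransferases Hs2st1, Hs6st1 and Hs6st2. Outside the cell the endosulfatases Sulf1 and Sulf2 take 6-O-sulfates off again, and the resulting pattern is known to govern the binding of FGFs, Wnts and other ligands, in fibroblasts as elsewhere.

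The lists held 74402 and 66165 peaks in siChst7 replicates 1 and 2, against 73902 and 75696 in siControl replicates 1 and 2. Read totals are not in these lists, but a background read density could be recovered from the steps between low fold values. Relative to siControl replicate 1 it was 1.02 and 0.757 in siChst7 and 1.00 and 0.964 in siControl, so siChst7 replicate 2 was the shallowest library. Of 10 fibroblast markers, 7 had an open start, meaning a peak within 1 kb of it, in all 4 libraries, among them Col1a1, Postn and Thy1, while Col3a1 and Tcf21 had none in any. So did 1 of 6 cardiomyocyte markers (Tnnt2), 1 of 4 epithelial, 1 of 4 neural, 0 of 4 endothelial and 0 of 4 immune markers. An siRNA acts on the transcript, so these data do not check the knockdown. The replicates are labelled biological without saying that they came from separate cultures, so p-values measure only the spread between these libraries. In bulk cells, fewer cells with an open site and less opening per cell cannot be told apart.

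A peak lay within 1 kb of a gene start in all 4 libraries at 9 of the 10 genes, against 53.8% of the 21887 protein-coding genes, and Sulf1 had none in any library. Ext1, Extl3, Ndst1 and Sulf1 had no entry in the RefSeq promoter table, so either gene end counted as a start. Starts inside these 4 genes were not examined. The promoter windows of RefSeq (GRCm38.p6), which run from 250 bases before the start to 50 after it, held 6 of the 10 genes with 8 windows. The upstream stretches that lie in no gene body are shown for 5 genes, because the start peaks reach over or into them. Each is written 5′ to 3′ on the gene's strand, and capitals mark the motifs that were searched. These were GGAATG for TEAD factors, which reads CATTCC on the opposite strand, and CACGTG, an E-box. Sp and KLF factors were searched by GGGGCGGGG, which reads CCCCGCCCC on the opposite strand. The core promoter box TATAAA was searched on the gene strand only.
Ext2, chr2:93822569-93822818, minus strand: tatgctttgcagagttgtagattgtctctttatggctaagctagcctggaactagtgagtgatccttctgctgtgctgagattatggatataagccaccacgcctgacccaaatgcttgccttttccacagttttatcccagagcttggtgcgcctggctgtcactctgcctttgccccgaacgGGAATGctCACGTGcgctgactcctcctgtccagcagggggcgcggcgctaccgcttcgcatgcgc
Ndst2, chr14:20734571-20734812, minus strand: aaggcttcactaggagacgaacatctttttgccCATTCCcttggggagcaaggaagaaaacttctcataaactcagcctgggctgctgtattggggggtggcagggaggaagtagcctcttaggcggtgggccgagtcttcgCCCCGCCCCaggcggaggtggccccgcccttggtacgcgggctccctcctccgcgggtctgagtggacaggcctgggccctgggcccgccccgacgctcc
Hs2st1, chr3:144570217-144570426, minus strand: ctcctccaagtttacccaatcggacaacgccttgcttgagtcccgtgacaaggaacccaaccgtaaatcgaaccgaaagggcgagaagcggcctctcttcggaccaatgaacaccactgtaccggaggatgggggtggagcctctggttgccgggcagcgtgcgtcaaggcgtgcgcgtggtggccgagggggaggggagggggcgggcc
Hs6st1, chr1:36068150-36068399, plus strand: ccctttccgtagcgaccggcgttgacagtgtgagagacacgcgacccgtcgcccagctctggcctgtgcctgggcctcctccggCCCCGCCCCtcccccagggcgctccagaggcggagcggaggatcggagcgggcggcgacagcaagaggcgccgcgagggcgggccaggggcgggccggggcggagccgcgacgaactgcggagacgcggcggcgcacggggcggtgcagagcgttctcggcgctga
Sulf2, chr2:166155684-166155933, minus strand: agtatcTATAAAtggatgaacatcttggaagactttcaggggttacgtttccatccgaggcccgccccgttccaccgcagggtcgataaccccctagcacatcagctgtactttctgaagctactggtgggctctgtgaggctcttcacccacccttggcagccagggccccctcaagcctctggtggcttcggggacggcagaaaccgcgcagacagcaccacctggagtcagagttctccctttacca

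Ext2 carried GGAATG and CACGTG close together without overlap, Ndst2 carried the TEAD and the Sp/KLF letters, Hs6st1 the Sp/KLF letters, and Sulf2 a TATAAA near the far edge. Over the full 300 base windows, GGAATG was found in 4 of the 8 windows (1 each at Ext2, Ndst2, Hs6st2 and Sulf2) and in 14.7% of the 32851 windows of all genes. GGGGCGGGG was found in 2 of the 8 windows and in 11.4% of all windows, and CACGTG in 1 of the 8 and in 7.15%. TATAAA was found in 2 of the 8 (at Hs6st2 and Sulf2) and in 8.32% of all windows. The GATA letters AGATAA (11.2% of all windows), a MEF2 motif (3.69%), the T-box letters AGGTGTGA (1.28%) and the AP-1 letters TGANTCA (7.81%) were in none of the 8 windows, with both strands searched. GC content was 78.0% at Hs6st1 with 47 CpG, and 67.7% at Hs2st1 with 32 CpG. It was 66.7% at Ndst2 with 20 CpG, and 58.0% at Ext2 with 18 CpG. The pairs of windows had 71.7% and 53.7% at Hs6st2 and 62.3% and 58.0% at Sulf2, against a median of 52.7% with 7 CpG over all windows. All of these windows were above the median GC content of the table.

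Across the 188 regions, 116 (61.7%) were called in all 4 libraries, against 62.0% of all regions of the series. A further 45 (23.9%) were called in a single library, against 17.5% of all regions. Of those 45, siChst7 replicates 1 and 2 held 22.2% and 11.1%, and siControl replicates 1 and 2 held 22.2% and 44.4%, where siControl replicate 2 held 32.8% of such regions in the whole series. Only the siChst7 libraries, both of them, held a peak at 3 regions (1.60%), against 1.24% of all regions. Only the siControl libraries, both of them, held one at 4 regions (2.13%), against 2.84%. These are called siChst7-only and siControl-only regions. Of the remaining regions, 12 (6.38%) were called in 3 libraries, against 10.4% of all regions, and 8 (4.26%) in 1 library of each siRNA, against 6.05%. Most of these counts changed when a library was left out. The siChst7-only count was 8 of 180 without siChst7 replicate 1 and 14 of 186 without siChst7 replicate 2, where 3.55% and 6.53% of all regions were so. It was 5 of 178 without siControl replicate 1 and 5 of 169 without siControl replicate 2 (3.05% and 3.23% of all regions). The siControl-only count was 12 of 180 without siChst7 replicate 1, where 8.60% of all regions were so. It stayed at 4, of 186, without siChst7 replicate 2 (4.56% of all regions). Without siControl replicate 1 it was 24 of 178 (9.03% of all regions), and without siControl replicate 2 it was 14 of 169 (7.89% of all regions).

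**Figure D1:**
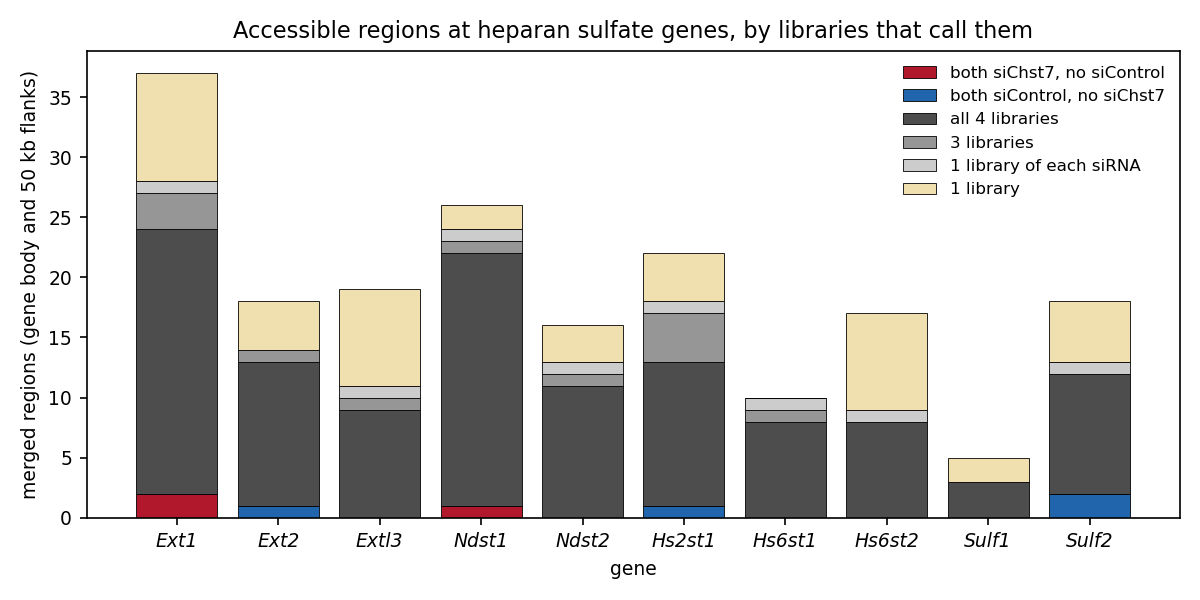
Merged regions at each gene (vertical axis, number of regions in the gene body and 50 kb flanks), stacked by the libraries that call them. Ext1 holds the most, 37, and Sulf1 the fewest, 5, and the red and blue pieces are the 3 siChst7-only and 4 siControl-only regions.

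Summed over the 10 genes, the siChst7 libraries held 149 and 133 peaks and the siControl libraries 148 and 158. The means were 141 ± 11.3 in siChst7 and 153 ± 7.07 in siControl (SD, n = 2 each), a difference of −12.0 with an exact two-sided permutation p = 0.667. The groups overlapped, and the shallowest library had the fewest peaks. With every list shortened to equal length the difference was −1.00. As a share of each library's list, these peaks made up 0.200% and 0.201% in siChst7, against 0.200% and 0.209% in siControl, a difference of −0.00387 percentage points (exact permutation p = 1.00). Without siControl replicate 2 that difference was 0.000378 points. With 2 libraries against 2 the smallest p possible is 0.333, so none of the 12 exact tests of peak counts could pass 0.05. At 4 genes (Ext2, Hs2st1, Hs6st2 and Sulf2) both siChst7 libraries had fewer peaks than both siControl libraries, as they did at 14.2% of all protein-coding genes. At none did they have more, against 2.48% of all genes. Both shares cover every protein-coding gene, including those without a peak in the window, where the groups cannot separate. The groups were not separated at the other 6 genes, with 31 and 26 peaks in siChst7 against 27 and 29 in siControl at Ext1, and 24 and 23 in siChst7 against 22 and 24 in siControl at Ndst1.

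To compare peak strength, the 55924 regions called in all 4 libraries were ranked within each library by −log10 q, the caller's measure of how far the summit stood above background, and placed on a percentile scale from 0 to 100. Both siChst7 ranks lay above both siControl ranks at 19 of the 116 shared regions (16.4%), against 20.2% of all shared regions. They lay below at 29 (25.0%), against 20.2%. By at least 10 points of the mean, 8 regions were higher (6.90%, against 7.26% of all) and 8 lower (6.90%, against 6.90%). The median rank difference, siChst7 minus siControl, was 0.07 points at the 116 regions and −0.04 points at all shared regions. The median absolute difference was 5.61 points between the siChst7 replicates, 4.20 between the siControl replicates and 4.30 between the group means. Over all shared regions of the series these were 4.59, 4.25 and 3.83 points. A mean of 2 libraries varies less than a single library by construction. Ranked by the fold enrichment instead, 22 regions were higher (19.5% of all shared regions were) and 25 lower (18.4%), and 15 and 20 were so by both rankings. Leaving out a library relaxes the criterion. Without siChst7 replicate 1 or 2 and without siControl replicate 1 or 2, the shared regions at the 10 genes numbered 116, 126, 118 and 119. The higher count was then 35, 45, 38 and 36, where 36.1%, 34.8%, 34.3% and 34.4% of all shared regions were higher. In the same order the lower count was 49, 47, 41 and 48, where 36.1%, 35.5%, 34.7% and 34.4% of all shared regions were lower.

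**Figure D2:**
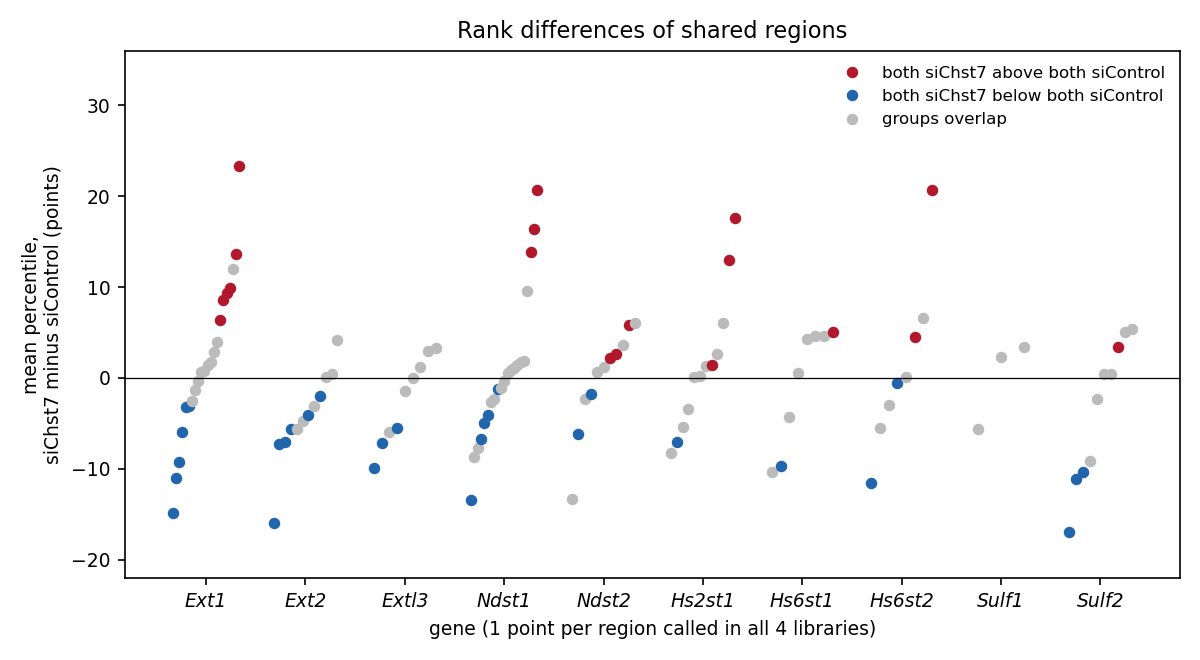
Difference in mean percentile of −log10 q, siChst7 minus siControl, for each of the 116 regions called in all 4 libraries, by gene. Red points have both siChst7 ranks above both siControl ranks (19 regions), and blue points have them below (29 regions). Ext2 has 6 blue points, not all of them in Ext2 itself, and no red one.

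Extl3, the enzyme that starts the chain, lies at chr14:65052059-65149899 and held 19 regions, 9 of them in all 4 libraries and 8 in a single one. The region over the gene end taken as its start, chr14:65149432-65150456, was also its strongest. Strongest means here and at the other genes the highest mean −log10 q over the 4 libraries. The fold enrichment there, which is the authors' own value for each peak within its own list, as is −log10 q, was 15.4 and 16.5 in siChst7, against 16.4 and 16.7 in siControl. In percentile of −log10 q it stood at 87.1 and 89.0 in siChst7 and at 88.2 and 87.9 in siControl, so the groups overlapped. No region of Extl3 was siChst7-only or siControl-only. Of its 9 shared regions, 3 (33.3%) ranked lower in both siChst7 libraries and none higher. Among all shared regions, 20.2% ranked lower and 20.2% higher.

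Ext1, a member of the polymerase complex, spans chr15:53068261-53346183 and held 37 regions, the most of the 10 genes, with no other protein-coding gene in its window. At the gene end taken as its start, chr15:53346052-53346533 had a fold enrichment of 12.2 and 12.3 in siChst7, against 13.7 and 14.0 in siControl. Its percentiles were 88.1 and 88.3 in siChst7 and 92.4 and 90.4 in siControl, so both siChst7 libraries lay below both siControl libraries, with a mean difference of −3.21 points. The summits lay 2 and 4 bases from the gene end in siChst7, and 3 and 3 bases from it in siControl. By that mean the strongest region was not at the start but 207 kb into the gene, at chr15:53138577-53139375, with −log10 q of 173 and 116 in siChst7, against 208 and 188 in siControl. In siChst7 replicate 1 alone, the region at chr15:53329582-53330880, 15.3 kb in, was stronger, with 206 and 107 in siChst7, against 143 and 149 in siControl.

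Both of the siChst7-only regions inside Ext1 were weak. The one at chr15:53130346-53130586, 216 kb into the gene, had −log10 q of 6.06 and 3.93, and the one at chr15:53202356-53202616, 144 kb in, had 3.68 and 3.50. Neither siControl library listed a peak there. Each kept its pattern in 2 of 6 other ways of filtering or merging the peaks, which were −log10 q of at least 5 or of at least 10, lists of equal length, peaks of at least 200 bp, summit windows of 200 bp and merging at 100 bp overlap. The filters on −log10 q, list length and width only remove peaks, so they could not add one in the libraries of the other siRNA.

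The largest rank gain of the 116 shared regions was at chr15:53125580-53126086, 220 kb into Ext1. Its percentiles were 53.0 and 57.2 in siChst7, against 26.7 and 36.8 in siControl, and its fold enrichment was 8.63 and 8.99 in siChst7, against 6.33 and 7.44 in siControl. The groups did not overlap in ranks by −log10 q or by fold enrichment, and the mean difference in percentile of −log10 q was 23.34 points. It was the nearest to the accessible end of 5 shared regions between 220 and 241 kb into the gene, of which 4 ranked higher in both siChst7 libraries, a grouping noticed after the values were seen. By fold enrichment ranks 2 of those 4 did. Among the 3 largest losses was a region 7.51 kb outside the accessible end, at chr15:53353690-53354300, with percentiles of 42.2 and 32.6 in siChst7, against 55.9 and 48.6 in siControl. Ext1 thus had 6 shared regions ranked higher and 6 ranked lower, among 22 (27.3% each, against 20.2% each of all shared regions).

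**Figure D3:**
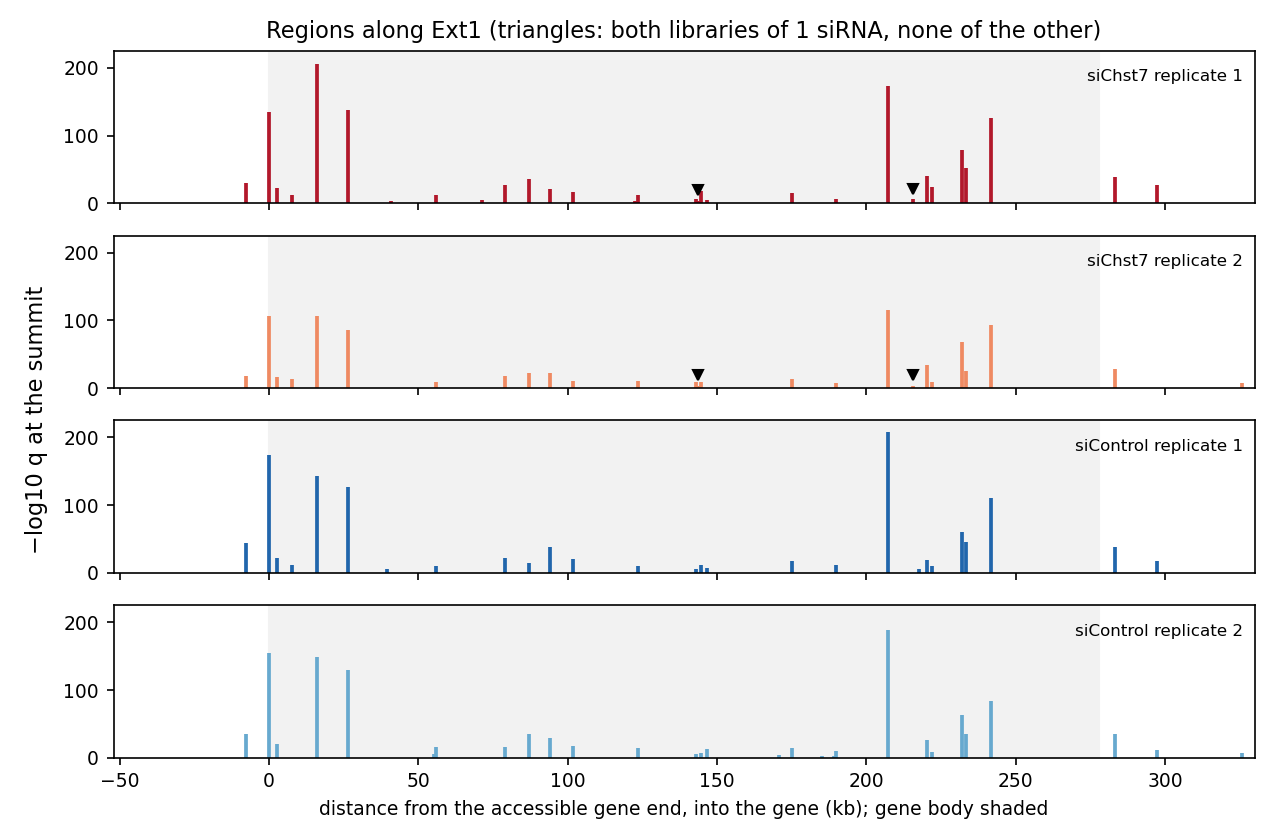
−log10 q at the summit (vertical axis) of every region along Ext1 in each library, with siChst7 above siControl, by distance in kb from the accessible gene end into the gene; the gene body is shaded. Triangles mark the 2 siChst7-only regions, 144 and 216 kb in, which are far below the start region and the region 207 kb in, which has the highest mean.

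Ext2, its partner in the polymerase complex, spans chr2:93695631-93822568 and held 18 regions, 12 of them in all 4 libraries. The start of Ext2 lay in chr2:93821065-93822805, which reaches into the stretch printed above and had a fold enrichment of 8.12 and 9.41 in siChst7, against 9.86 and 10.1 in siControl. Its percentiles were 66.5 and 74.9 in siChst7 and 75.8 and 76.8 in siControl, with no overlap. A separate region 0.913 kb outside the start, at chr2:93823481-93824013, had percentiles of 77.2 and 77.7 in siChst7, against 78.3 and 80.6 in siControl. Of the 12 shared regions in the window, 6 ranked lower in both siChst7 libraries and none higher (50.0%, where 20.2% of all shared regions ranked lower). Among the 6 were a region inside the neighbour Accs, at chr2:93849345-93850278, and one inside the neighbour Accsl, at chr2:93870736-93871280. By fold enrichment ranks, neither of the start regions of Ext2 was lower, nor was the region inside Accsl.

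The largest loss at Ext2 was 35.9 kb into the gene, at chr2:93786185-93786665, with percentiles of 41.9 and 20.9 in siChst7, against 48.8 and 46.1 in siControl. Its strongest region, at chr2:93796959-93797944, 24.6 kb in, had −log10 q of 191 and 158 in siChst7 and 187 and 207 in siControl, and the percentiles overlapped. A weak region at chr2:93806674-93806982 was siControl-only, with −log10 q of 4.90 and 4.60. Peaks at Ext2 numbered 15 and 14 in siChst7, against 17 and 16 in siControl (difference of −2.00, exact permutation p = 0.333). The Accs, Accsl and Alx4 genes lie in its window, and 4 of its 5 flank regions fall inside one of them.

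Ndst1 and Ndst2 remove acetyl groups and add N-sulfates. Ndst1 spans chr18:60684494-60749035 and had the densest window, with 26 regions and 15.8 per 100 kb, 21 of them in all 4 libraries. At the gene end taken as its start, chr18:60748647-60749216 was weak, with a fold enrichment of 4.15 and 2.98 in siChst7, against 2.99 and 3.10 in siControl. Only siChst7 replicate 1 stood high there, at percentile 31.2, where siChst7 replicate 2 was at 7.31 and the siControl libraries were at 9.08 and 10.3. The strongest region in the window, at chr18:60774142-60775360, belongs to the neighbouring ribosomal protein gene Rps14 by position, with −log10 q of 235 and 192 in siChst7, against 243 and 273 in siControl.

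The strongest siChst7-only region of all 10 genes lay in the Ndst1 window, at chr18:60639604-60640103. It was 44.4 kb from the Ndst1 body and inside Synpo, which encodes the actin-associated protein synaptopodin. Its −log10 q was 17.6 and 10.4 in siChst7, its fold enrichment was 3.27 and 3.05, and no siControl library listed a peak there. It kept this pattern in 6 of 6 other ways of filtering or merging. No looser filter was tried, and the filters used could not add a siControl peak there. The nearest shared regions on each side of it, also inside Synpo, ranked lower in both siChst7 libraries. At chr18:60638061-60638582 the percentiles were 66.7 and 71.4 in siChst7, against 73.6 and 74.4 in siControl. At chr18:60643636-60643956 they were 36.4 and 49.7 in siChst7, against 58.2 and 54.7 in siControl. On the other side, 40.2 kb outside Ndst1 and in no other protein-coding gene, the region at chr18:60789211-60789704 had one of the 3 largest rank gains. Its percentiles were 59.8 and 65.4 in siChst7, against 44.8 and 38.9 in siControl. Of the 21 shared regions in the Ndst1 window, 5 (23.8%) ranked lower in both siChst7 libraries and 3 (14.3%) higher, against 20.2% each of all shared regions.

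Ndst2 is short, at chr14:20723730-20734570, and its window is crowded: all 14 of its flank regions lay inside another protein-coding gene (Camk2g, Chchd1, Fut11, Sec24c or Zswim8). Its start region at chr14:20733930-20734865 had a fold enrichment of 9.21 and 11.3 in siChst7, against 8.26 and 10.9 in siControl. Replicate 2 was the higher one in both groups, and the groups overlapped. That region cannot be given to Ndst2 alone, since the body of Camk2g lies 302 bp away. No Ndst2 region was siChst7-only or siControl-only. Of the 11 shared regions in the window, 3 (27.3%) ranked higher in both siChst7 libraries and 2 (18.2%) lower, against 20.2% each of all shared regions. Its strongest window region lay at the Sec24c gene, at chr14:20673981-20674898, with −log10 q of 212 and 168 in siChst7, against 199 and 181 in siControl.

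Hs2st1, the only 2-O-sulfotransferase of the chain, spans chr3:144429701-144570216 and held 22 regions, 12 of them in all 4 libraries. Its start region at chr3:144570175-144570967 was the strongest start of the 10 genes. Its fold enrichment was 17.7 and 18.6 in siChst7, against 17.0 and 16.3 in siControl. The percentiles were 98.0 and 98.5 in siChst7, against 97.2 and 96.5 in siControl, so both siChst7 libraries ranked above both siControl libraries by 1.39 points of the mean. This stretch is shared with Selenof, a selenoprotein gene on the opposite strand whose body begins 210 bp away, and the sequence printed above is the whole gap between them. A weak region just inside the start, at chr3:144569301-144569816, had −log10 q of 3.76 in siChst7 replicate 1, against 6.62 and 9.08 in siControl, and no peak in siChst7 replicate 2. A region farther inside the gene, at chr3:144444383-144444830, was siControl-only, with −log10 q of 8.48 and 6.02, and it kept its pattern in 4 of 6 other settings. Peaks numbered 16 and 16 in siChst7, against 17 and 19 in siControl (difference of −2.00, exact permutation p = 0.333). Of the 12 shared Hs2st1 regions, 3 (25.0%) ranked higher in both siChst7 libraries and 1 (8.33%) lower, against 20.2% each of all shared regions.

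Hs6st1 and Hs6st2 add the 6-O-sulfates that the endosulfatases later remove. Hs6st1 spans chr1:36068400-36106446 and held 10 regions, 8 of them in all 4 libraries and 0 in a single library. Its start region at chr1:36067979-36069102 covers the GC-rich stretch printed above. The fold enrichment there was 7.17 and 6.08 in siChst7, against 7.27 and 8.21 in siControl. Percentiles were 62.4 and 53.8 in siChst7 and 65.2 and 70.4 in siControl, lower in both siChst7 libraries with a mean difference of −9.67 points. The strongest region, 37.4 kb outside the gene at chr1:36030110-36031032, had −log10 q of 232 and 206 in siChst7, against 237 and 245 in siControl, and its percentiles overlapped. Of the 8 shared Hs6st1 regions, 1 ranked higher in both siChst7 libraries and 1 lower (12.5% each, against 20.2% each of all shared regions).

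Hs6st2 spans chrX:51386637-51681705, the longest of the 10 genes at 295 kb, yet held 17 regions (4.30 per 100 kb), 8 of them in a single library. Its start region at chrX:51679665-51681688 covers both RefSeq starts and was its strongest. The fold enrichment was 10.1 and 9.89 in siChst7, against 11.5 and 9.97 in siControl, and the percentiles, 64.3 and 65.3 in siChst7 and 72.9 and 62.7 in siControl, overlapped. Near the far end of the gene, the region at chrX:51407103-51407695 had one of the 3 largest rank gains. It stood at percentiles 37.5 and 44.5 in siChst7, against 26.6 and 13.9 in siControl. Peaks at Hs6st2 numbered 11 and 10 in siChst7, against 12 and 12 in siControl (difference of −1.50, exact permutation p = 0.333). Of the 8 shared Hs6st2 regions, 2 ranked higher in both siChst7 libraries and 2 lower (25.0% each, against 20.2% each of all shared regions).

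**Figure D4:**
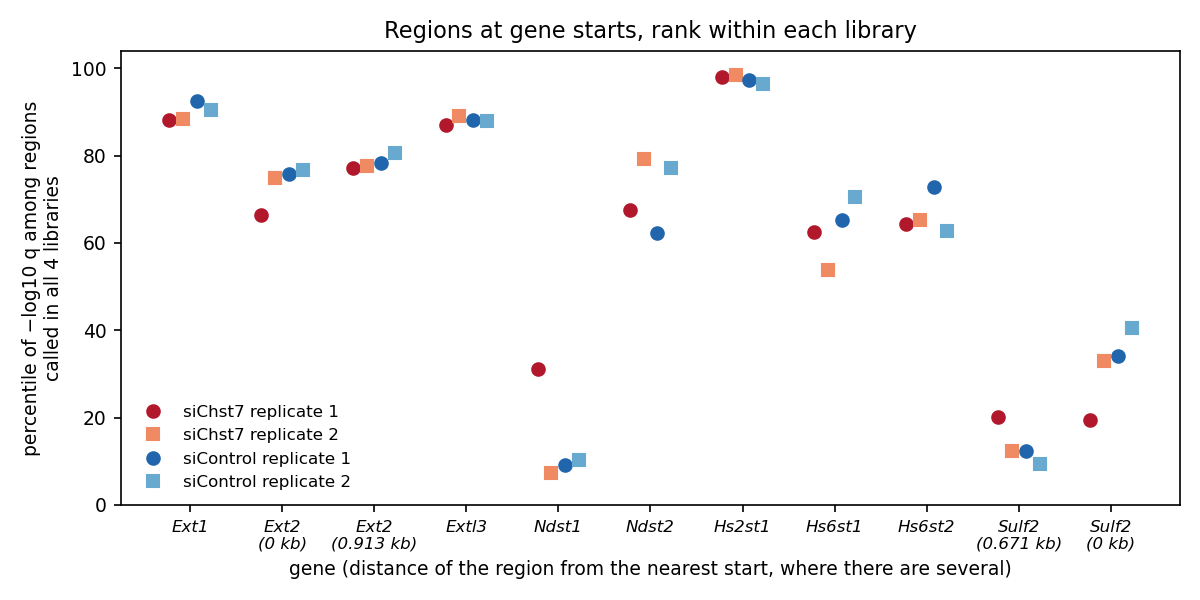
Percentile of −log10 q (vertical axis, 0 to 100, among the 55924 regions called in all 4 libraries) of each start region called in all 4 libraries; siChst7 libraries are red and orange, siControl libraries blue, and replicates 1 and 2 are circles and squares. Hs2st1 stands highest, at 96.5 to 98.5, and Ndst1 and the inner Sulf2 region stand lowest.

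The endosulfatase genes differed from each other in the number of open regions in their windows. Regions touching the gene body itself numbered 2 at Sulf1 and 11 at Sulf2. Sulf1, at chr1:12692197-12861192, held 5 regions (1.86 per 100 kb, the sparsest window of the 10 genes) and no peak within 1 kb of either gene end in any library. Its strongest region lay 33.4 kb outside the gene at chr1:12657472-12658772, with −log10 q of 76.4 and 50.4 in siChst7, against 62.1 and 70.3 in siControl. A region inside the gene at chr1:12715376-12715806 had percentiles of 7.81 and 29.3 in siChst7, against 29.4 and 19.0 in siControl. The groups overlapped at all 3 shared regions of Sulf1, and no Sulf1 region was siChst7-only or siControl-only.

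Sulf2, at chr2:166073899-166155683, held 18 regions, 10 of them in all 4 libraries. Its start region at chr2:166155103-166155793 covers both RefSeq starts. The fold enrichment there was 5.15 and 6.06 in siChst7, against 6.34 and 6.84 in siControl. Its percentiles were 19.4 and 32.9 in siChst7, against 34.1 and 40.5 in siControl, lower in both siChst7 libraries with a mean difference of −11.16 points. A further region 0.671 kb inside the inner start, at chr2:166154099-166154614, had percentiles of 20.2 and 12.3 in siChst7 and 12.4 and 9.35 in siControl, which overlapped. The strongest Sulf2 region, at chr2:166080504-166081791, lay 73.9 kb from the outer start, with −log10 q of 50.5 and 41.6 in siChst7, against 62.2 and 43.7 in siControl. Its percentiles were 60.8 and 63.1 in siChst7 and 67.3 and 55.9 in siControl, which overlapped. In siControl replicate 2 the region at chr2:166108418-166108871 was stronger, at 48.6. The Ncoa3 gene lies in the Sulf2 window, and 3 of the 7 flank regions fall inside it.

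Peaks at Sulf2 numbered 11 and 11 in siChst7, against 14 and 15 in siControl, the widest gap of the 10 genes (difference of −3.50, exact permutation p = 0.333, the smallest possible). Of the Sulf2 regions, 2 were siControl-only. The one at chr2:166170118-166170542, 14.4 kb outside the start, was the strongest of the 4 such regions, with −log10 q of 15.5 and 14.9 and a fold enrichment of 6.54 and 6.88, and it kept its pattern in 6 of 6 other settings. The other, inside the gene at chr2:166082097-166082436, had −log10 q of 4.62 and 7.50 and kept it in 3 of 6. The filters among these settings could not add a siChst7 peak at either region. The largest rank loss of the 116 shared regions was also here, at chr2:166108418-166108871, 46.8 kb into the gene. Its fold enrichment was 11.7 and 9.45 in siChst7, against 14.7 and 15.3 in siControl. Its percentiles were 46.3 and 35.1 in siChst7, against 55.5 and 59.7 in siControl, a mean difference of −16.94 points. In all, 3 of the 10 shared Sulf2 regions (30.0%) ranked lower in both siChst7 libraries and 1 (10.0%) higher. Of all shared regions, 20.2% ranked lower and 20.2% higher. The lower read density of siChst7 replicate 2 runs in the same direction as these losses of peaks, and its part in them was not tested.

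**Figure D5:**
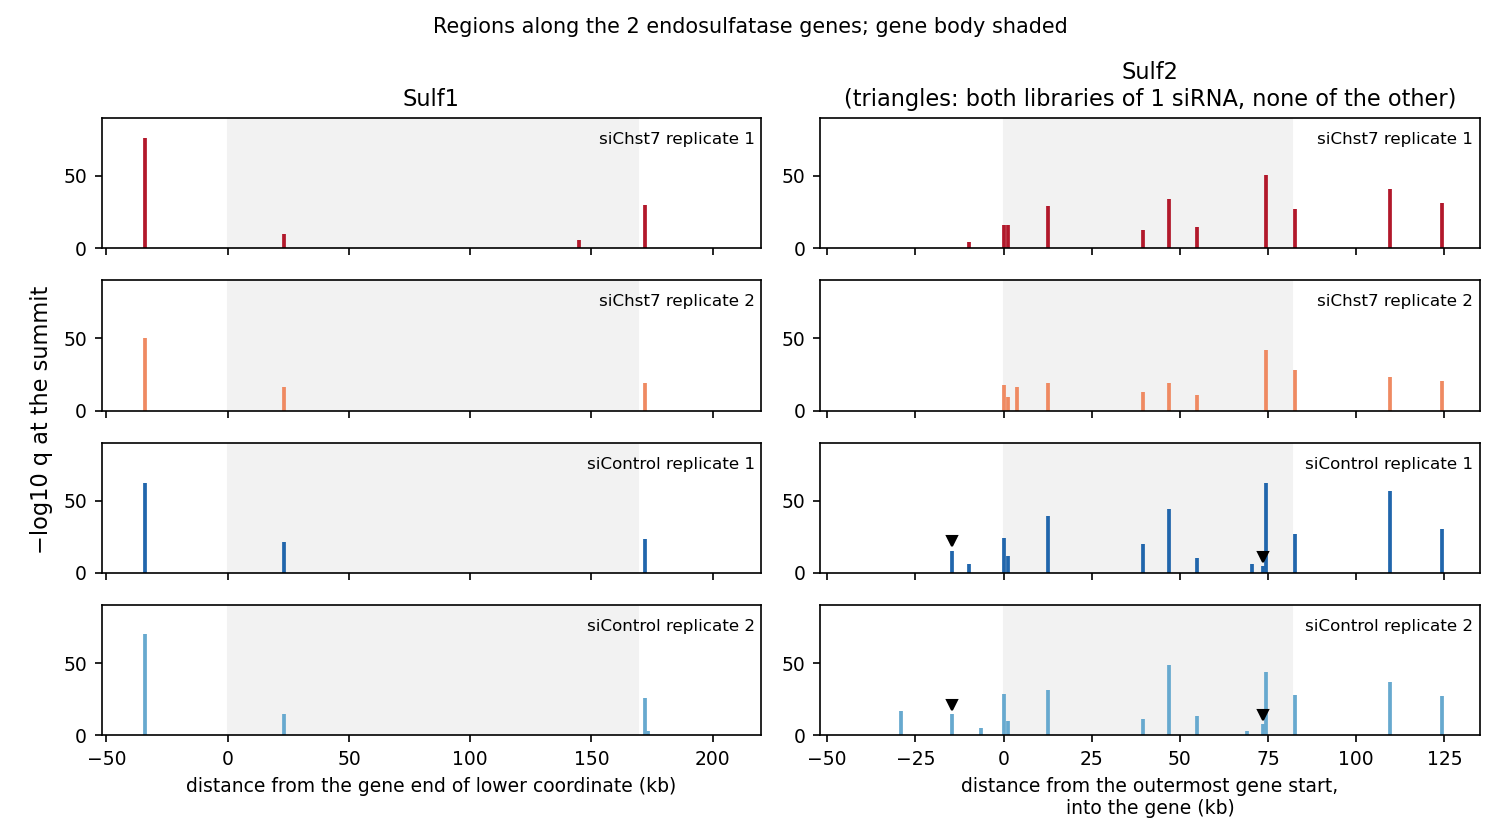
−log10 q at the summit (vertical axis, same scale) of every region along Sulf1 (left, by distance in kb from its end of lower coordinate) and Sulf2 (right, by distance from the outermost start into the gene), with siChst7 above siControl and the gene body shaded. Sulf1 shows 5 regions and none at either gene end, and triangles mark the 2 siControl-only regions of Sulf2, 14.4 kb outside the start and 73.2 kb into the gene.

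The 50 kb limit cut through neighbouring peaks rather than an empty stretch. Just inside it lay regions 48.3 kb from Hs2st1, with −log10 q of 59.7 and 38.2 in siChst7, against 64.6 and 57.5 in siControl, and 48.5 and 48.8 kb from Ndst2. Just outside lay one 50.3 kb from Hs6st1 with 87.4 and 69.0 in siChst7, against 74.7 and 59.2 in siControl, one 50.3 kb from Hs2st1 that siChst7 replicate 2 lacked, and one 50.9 kb from Sulf1 called in siControl replicate 1 alone.

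The rest of the pathway was read against the 53.8% of all protein-coding genes that had a start peak in all 4 libraries. Of 15 other chain enzymes, 4 had one: Extl1, Extl2, the epimerase gene Glce and the 3-O-sulfotransferase gene Hs3st3b1. Hs3st5 had one in 3 libraries, and the other 10, including Ndst3, Ndst4, Hs6st3 and the heparanase gene Hpse, had none in any. A start peak in all 4 libraries was found for 13 of 14 genes of linker synthesis and sulfate supply, 9 of 13 core protein genes, 7 of 8 genes of lysosomal breakdown, 8 of 10 chondroitin and dermatan sulfotransferase and epimerase genes, Chst7 among them, and 4 of 5 FGF receptor genes. The 15 chain enzyme genes held 64 regions, of which 2 were siChst7-only (3.12%, against 1.24% of all regions) and 1 was siControl-only (1.56%, against 2.84%), all 3 at Glce. Its siChst7-only regions at chr9:62114707-62114983, inside the gene, and chr9:62152089-62152482, 29.5 kb outside, had −log10 q of 11.3 and 15.0 and of 8.97 and 6.08. A weaker siControl-only region lay at chr9:62046824-62047123, with 5.40 and 2.83.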

How the data were processed

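The 4 libraries (2 siChst7, 2 siControl) were taken as deposited, as 1 peak list each on mm10. Bowtie, MACS3, HOMER, SAMtools and bedtools are named in the submitters' processing notes, without versions or roles. Whether duplicates were removed, Tn5 cuts shifted or an exclusion list applied is not given in the sources used here. Per the file contents, replicates were not pooled: each list was called on a single alignment. The authors deposited with each peak a fold enrichment (a ratio of the summit's pileup to local background within that library), a −log10 p and a −log10 q at the summit, a score of 10 times the −log10 q, and a summit offset. The lowest −log10 q per list lay just above 2. These values depend on each library's depth, which is not given. They were used to describe, rank and filter peaks within a list. Where values of different libraries are printed side by side, they are not corrected for depth.

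Peaks on chromosomes 1 to 19, X and Y were merged at an overlap of 1 bp, and 278 peaks elsewhere were left out. Gene bodies were read from RefSeq's genes on GRCm38.p6, and starts from the RefSeq promoter table; where that table had no entry, both gene ends were taken (Ext1, Extl3, Ndst1 and Sulf1). Exons and introns were not told apart. The regions named are those called in both libraries of 1 siRNA and in none of the other, each gene's start region and strongest region, the 3 largest rank gains and losses, and those nearest the 50 kb limit. Some others, such as neighbours of these regions, were named after their values were seen. Of the other lists at most 3 genes with such regions could be named; genes named there for a start peak were chosen after their values were seen. Peak counts were compared with exact two-sided permutation tests over libraries. The merging, calling and ranking steps were tested on simulated data. The genes, lists and alternatives were chosen with earlier results of these data known. The replicate numbers are not said to pair libraries. Python 3.11.15, numpy 2.4.6, pandas 2.3.3, scipy 1.17.1 and matplotlib 3.10.9 were used.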

Additional observations from a re-analysis of the deposited data

How the results depend on the processing

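With filters at −log10 q of at least 5 or 10, equal list lengths, peaks of at least 200 bp, summit windows of 200 bp and merging at 100 bp overlap, most counts stayed within 1.5 times. The siChst7-only count was 1 of 176 with peaks of at least 200 bp (3 before), beside 1.36% of all regions. The siControl-only count was 2 of 130 at −log10 q of at least 10 (4 before), beside 2.69% of all regions. The difference in the share of peaks turned positive at −log10 q of at least 5 (0.00109 percentage points) and without siControl replicate 2; the cause was not tested. Narrower windows hold fewer regions by construction. With the gene body only, 66 of 107 regions were called in all 4 libraries, and 12 of the 66 ranked higher and 15 lower. With 10 kb flanks these counts were 75 of 125, 12 and 17. With 100 kb flanks they were 162 of 262, 34 and 34. Over the whole series, 62.0% of regions were called in all 4 libraries. Of those, 20.2% ranked higher and 20.2% lower. Ranks by fold enrichment were added after seeing the data.

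Leaving out each library in turn gave 5 to 14 siChst7-only regions, where 3.05% to 6.53% of all regions were so. It gave 4 to 24 siControl-only regions (4.56% to 9.03% of all) and 116 to 126 called in every library left (66.7% to 68.6% of all). It gave 35 to 45 regions ranked higher and 41 to 49 ranked lower, 9 genes with a start peak each time, differences of −20.0 to −4.00 peaks, and share differences of −0.00811 to 0.000378 percentage points. Criteria over 3 libraries are looser than over 4.

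With the replicate number as a block, the paired differences averaged −12.0 peaks and −0.00387 percentage points (exact sign-flip p = 1.00 for both; the smallest possible p is 0.5). Pair 1 differed by 1.00 peak and pair 2 by −25.0 peaks. The labels do not say that the numbers pair libraries. A missing peak at the lower depth of siChst7 replicate 2 is not evidence of closed chromatin.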

Other observations

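Regions called in both libraries of 1 siRNA and in none of the other were also seen at other genes of the glycosaminoglycan pathways. Of 143 regions at heparan sulfate core protein genes, 3 (2.10%) were siChst7-only and 5 (3.50%) siControl-only, against 1.24% and 2.84% of all regions of the series. At Gpc6, a glypican gene, both such regions were siChst7-only and lay inside the gene, with −log10 q of 10.9 and 9.0 at chr14:117058767-117059155 and of 8.16 and 3.91 at chr14:116933686-116934096. At Gpc1, another glypican gene, both were siControl-only, with 14.4 and 12.9 at chr1:92840201-92840534 inside the gene and 3.29 and 3.32 at chr1:92865021-92865330.

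Of 136 regions at chondroitin and dermatan sulfotransferase and epimerase genes, the enzyme class of Chst7, 2 (1.47%) were siChst7-only, both at Chst12, and 3 (2.21%) were siControl-only, 2 of them at Chst11 and 1 at Dse. Chst11 and Chst12 both encode chondroitin 4-O-sulfotransferases. The Chst12 regions had −log10 q of 17.3 and 10.9 at chr5:140501768-140502211 and of 4.80 and 7.17 at chr5:140549787-140550180. The Chst11 regions had 11.4 and 17.2 at chr10:83225152-83225454 and 11.8 and 13.8 at chr10:83182583-83182901. These counts lay near the shares of the whole series, and no difference between the lists was tested.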
